A study of Mus musculus with 18 samples.

Results

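Ctcf and its germ-cell paralogue Ctcfl were followed across mouse testes with and without a working copy of Zfp541, 2 genes of the 46420 symbols that had a value in all 18 libraries. They were chosen by symbol, and Ctcfl was selected on its measured rise in the Zfp541 KO libraries of these same data. The KO values against the Het values are therefore given as a description for both genes, with no test. Ctcf encodes a zinc-finger protein of nearly all cell types that binds insulators and, with the ring-shaped cohesin complex, holds the bases of chromatin loops. Ctcfl, also called BORIS, encodes a protein with a closely related zinc-finger region and different ends, which in the mouse testis is known from late spermatogonia and from spermatocytes that are about to enter meiosis. Zfp541 encodes a nuclear zinc-finger protein of spermatocytes that works with histone deacetylases and is needed for spermatocytes to pass through late meiotic prophase.

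Poly(A) RNA was sequenced from males of strain C57BL/6J in 6 groups of 3 libraries: spermatocytes at postnatal day 18 (P18) from Zfp541-/- (KO) and Zfp541+/- (Het) mice, whole testis at P18 from KO and Het mice, and whole testis at P14 from KO and Het mice. The controls were heterozygotes, so every group carried at least 1 disrupted Zfp541 allele, and no wild type was used here. What the allele removes, how the spermatocytes were isolated, and whether each library came from a different animal are not given in the sources used here. The design text calls the libraries biological replicates, and p-values measure only the spread between these libraries, which may in part be technical.

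The deposited values were RPKM (reads per kilobase of gene and per megaread) for spermatocytes and P14 testis and FPKM (the same for fragments) for P18 testis, and levels below are these values after 1 scaling factor per library (trimmed mean of M values, TMM). Between 9.26 and 21.12 megareads stood behind a library, which gave Ctcf 788 to 1733 reads and Ctcfl 166 to 578 reads in each. Zfp541 averaged 13.2 ± 0.966 in KO and 42.2 ± 14.8 in Het spermatocytes (SD, n = 3 each), 9.28 ± 0.947 in KO and 23 ± 4.29 in Het P18 testis, and 4.40 ± 1.00 in KO and 9.33 ± 1.06 in Het P14 testis. It was lower in every KO library than in every Het library of its set and past the threshold in both P18 sets (limma, Benjamini-Hochberg adjusted p = 0.00355 in spermatocytes and 0.00536 in testis) but not at P14 (adjusted p = 0.0825), and it stayed well above 0 in the KO libraries. The spermatocyte label was checked against marker genes: all 11 Sertoli and all 6 Leydig markers were lower in spermatocytes than in P18 testis in both genotypes. All Leydig markers but Star, and the Sertoli markers Gata1 and Fshr, passed the filter only with the testis libraries. Their fall was fixed in advance, so nothing is read from it. Of 8 synaptonemal axis markers, 7 were higher in KO and 6 in Het. Of 10 late pachytene markers, 2 were higher and 1 lower in KO, and 4 higher and none lower in Het. Of 11 spermatogonia markers, 8 were higher and 2 lower in KO, and 8 higher and 1 lower in Het. Among all 18860 genes, 5415 (28.7%) were higher and 6128 lower in KO, and 4627 (24.5%) higher and 6123 lower in Het. The 5 peritubular myoid markers did not pass the test in either direction. Their summed level was 58.9 to 211.9 in KO and 63.7 to 164.8 in Het spermatocytes. In P18 testis it was 105.8 to 139.3 in KO and 100.3 to 125.2 in Het. The check therefore did not show myoid RNA to be depleted from the spermatocyte fraction.

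Ctcf (ENSMUSG00000005698.15) lies on chromosome 8 at 105636568 to 105682922 on the plus strand of GRCm38, with 4860 bases of merged exons in GENCODE M21. Ctcfl (ENSMUSG00000070495.11) lies on chromosome 2 at 173093609 to 173119525 on the minus strand, with 3217 bases. The most alike 90-base stretch of the coding sequences, in the zinc-finger region, is shown because it bears on whether reads of a gene and its paralogue can be mixed up. It runs from coding base 976 to 1065 of 2208 in Ctcf and from 949 to 1038 of 1908 in Ctcfl, 5′ to 3′, and capitals mark the 74 bases (82.2%) that are identical.
Ctcf: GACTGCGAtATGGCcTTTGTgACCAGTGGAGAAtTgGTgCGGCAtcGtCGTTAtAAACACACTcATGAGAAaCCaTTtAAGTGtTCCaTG
Ctcfl: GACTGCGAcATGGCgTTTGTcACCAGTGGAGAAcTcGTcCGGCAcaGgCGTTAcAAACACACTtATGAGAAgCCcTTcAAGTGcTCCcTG
The longest run shared by the coding sequences in this window was 12 bases, and 0 of the 4899 stretches of 50 bases in Ctcf exons occurred in Ctcfl. Other overlaps were larger. The antisense gene Ctcflos shares 171 exon bases (5.32%) with Ctcfl, and on the opposite strand of Ctcf the non-coding gene Gm5914 shares 370 bases (7.61%) and Agrp, a hypothalamic feeding peptide gene, 114 bases (2.35%). Strandedness is not given in the sources used here, so reads in those shared bases could not be assigned to a strand.

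Ctcfl was the more variable gene of the pair. Its highest library was 4.13-fold above its lowest, against 1.73-fold for Ctcf. Ctcfl was highest in KO spermatocytes, followed by Het spermatocytes, KO testis at P18, KO testis at P14, Het testis at P14 and Het testis at P18, and in that order the neighbours KO P18 testis and KO P14 testis overlapped, as did KO P14 testis and Het P14 testis. Ctcf was also highest in KO spermatocytes and lowest in Het P18 testis, but its other groups lay close together: KO P14 testis, Het P14 testis, Het spermatocytes and KO P18 testis each overlapped the next in that order. Ctcf levels exceeded Ctcfl levels per unit of length in every library.

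**Figure D1:**
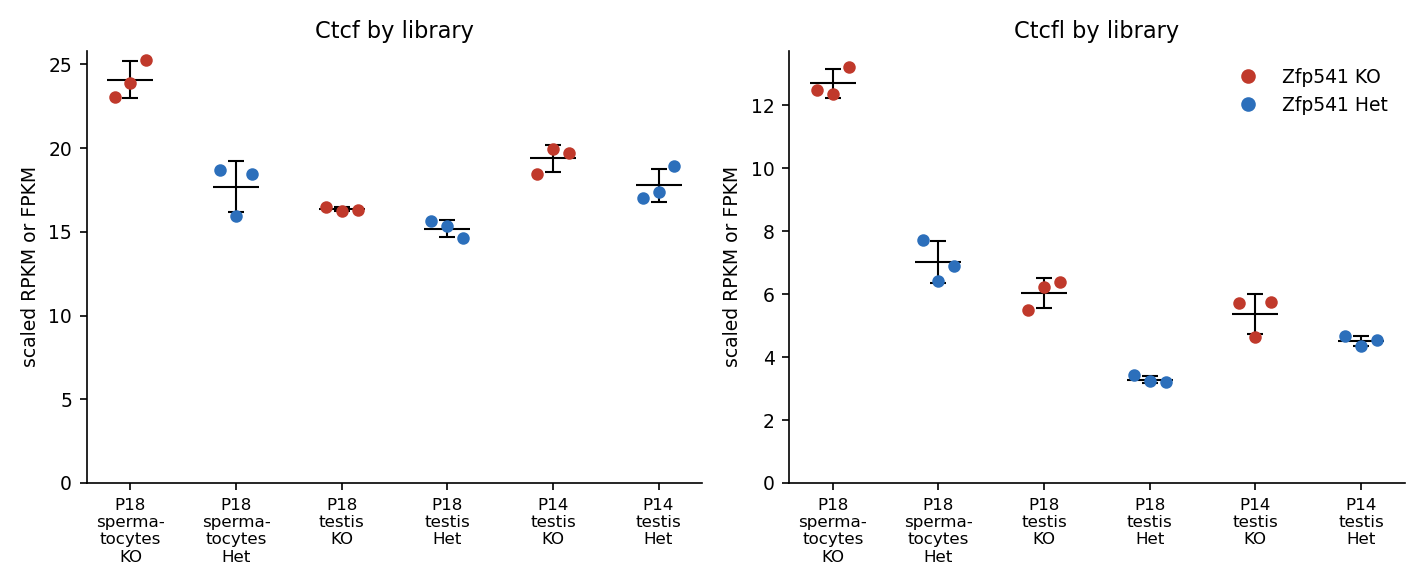
Levels of Ctcf (left) and Ctcfl (right) in each of the 18 libraries, as TMM-scaled RPKM (spermatocytes, P14 testis) or FPKM (P18 testis); points are libraries, red for KO and blue for Het, and bars give the group mean ± SD (n = 3). The 3 KO spermatocyte libraries lie between 12.4 and 13.2 for Ctcfl, above every other library.

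In spermatocytes, Ctcfl was at 12.5, 12.4 and 13.2 scaled RPKM in the KO libraries 1 to 3, against 7.72, 6.42 and 6.9 in the Het libraries. Every KO library lay above every Het library, as was the case for 31.0% of the 15935 genes tested there, and nothing is read from that share because Ctcfl was picked for it. The means were 12.7 ± 0.465 in KO and 7.01 ± 0.661 in Het spermatocytes (SD, n = 3 each), a ratio of 1.81 and a log2 difference of 0.82 ± 0.11 (SE). The median difference of all genes in this set was 0.10. In bulk RNA, more or fewer cells of a type and more or less RNA per cell cannot be told apart.

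Whole testis at P18 gave a difference of similar size at lower levels. Ctcfl stood at 5.51, 6.24 and 6.38 scaled FPKM in KO testis and at 3.42, 3.23 and 3.21 in Het testis. The groups did not overlap, with KO higher, which held for 21.2% of the 18259 genes tested. The log2 difference was 0.79 ± 0.09, from means of 6.04 ± 0.468 in KO and 3.283 ± 0.117 in Het testis, 1.84-fold apart.

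At P14 the genotypes were not separated. Ctcfl read 5.73, 4.62 and 5.75 scaled RPKM in KO testis against 4.67, 4.35 and 4.54 in Het testis. KO library 2 fell within the Het range, and KO libraries 1 and 3 lay above it. The log2 difference was 0.22 ± 0.09, from means of 5.37 ± 0.645 in KO and 4.52 ± 0.162 in Het testis. Whether this difference was smaller than those at P18 was not tested.

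Ctcf moved less. In spermatocytes it was at 23.1, 23.9 and 25.3 scaled RPKM in KO libraries and at 18.7, 15.9 and 18.5 in Het libraries. All KO libraries were above all Het libraries, as for 31.0% of all genes tested there. The means of 24.1 ± 1.12 in KO and 17.7 ± 1.53 in Het differed by 0.44 ± 0.11 on the log2 scale, a ratio of 1.36. In P18 testis the values of 16.5, 16.3 and 16.3 scaled FPKM in KO against 15.6, 15.3 and 14.6 in Het also did not overlap, as for 21.2% of genes with KO higher. That gap was small, 0.10 ± 0.05 in log2 or 1.08-fold, beside a median of 0.01 for all genes. With the values as deposited it was 0.22, where the median of all genes was 0.12, and with median-of-ratios scaling 0.21, where the median was 0.11. At P14 Ctcf was at 18.5, 20 and 19.7 scaled RPKM in KO testis and at 17, 17.4 and 18.9 in Het testis. The highest Het library exceeded the lowest KO library, and the log2 difference was 0.12 ± 0.06.

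**Figure D2:**
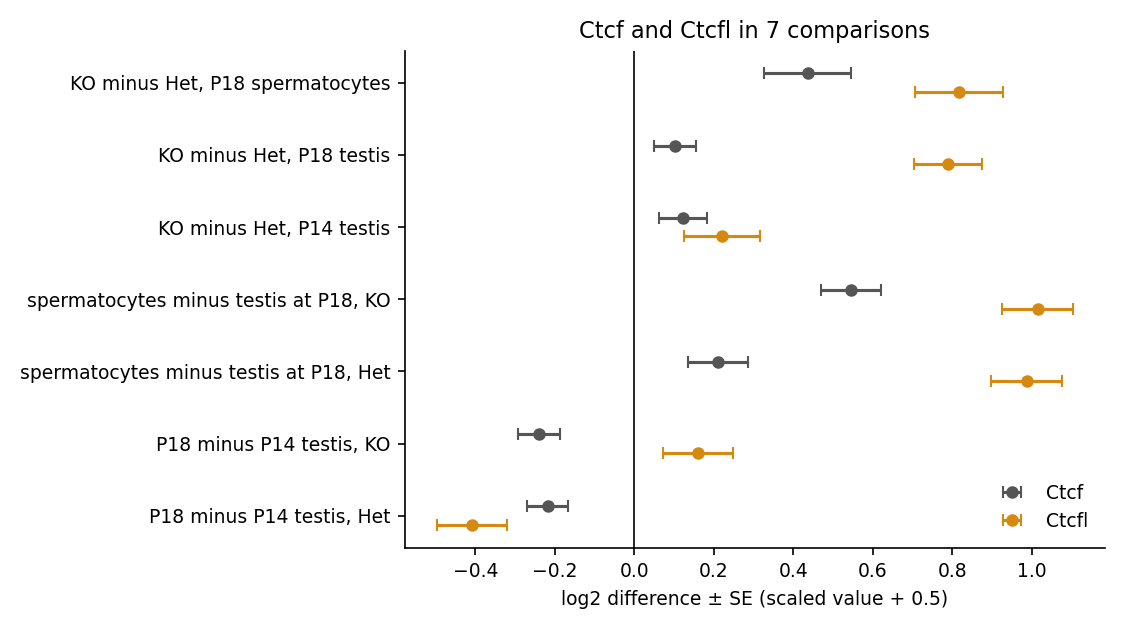
Log2 differences of Ctcf (grey) and Ctcfl (orange) with their SE in the 7 comparisons, each as the first-named group minus the second, from limma fits on log2 of the scaled value plus 0.5. Ctcfl lies at 0.82 and 0.79 for KO minus Het in spermatocytes and P18 testis, and Ctcf lies below 0 for both age comparisons, although with values as deposited its age difference in KO is 0.07.

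Dividing Ctcfl by Ctcf within a library removes the scaling between libraries. Ctcfl per unit of length amounted to 54.1, 51.8 and 52.3% of Ctcf in KO spermatocytes, against 41.3, 40.3 and 37.3% in Het spermatocytes. In P18 testis it amounted to 33.4, 38.4 and 39.2% in KO and 21.9, 21.1 and 21.9% in Het. In P14 testis the shares were 31, 23.2 and 29.1% in KO and 27.5, 25 and 24% in Het. The genotypes did not overlap in both P18 sets and overlapped at P14. The log2 ratio was higher in KO than in Het by 0.41 ± 0.05 in spermatocytes, by 0.77 ± 0.07 in P18 testis and by 0.12 ± 0.14 in P14 testis (SE, n = 3 each). The P14 difference was 0.03 without KO library 1, 0.24 without KO library 2, 0.08 without KO library 3 and 0.07 without Het library 3. Ctcfl came nearest to Ctcf in KO spermatocytes, at 52.8 ± 1.22% (SD), and was farthest from it in Het P18 testis, at 21.6 ± 0.476%.

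**Figure D3:**
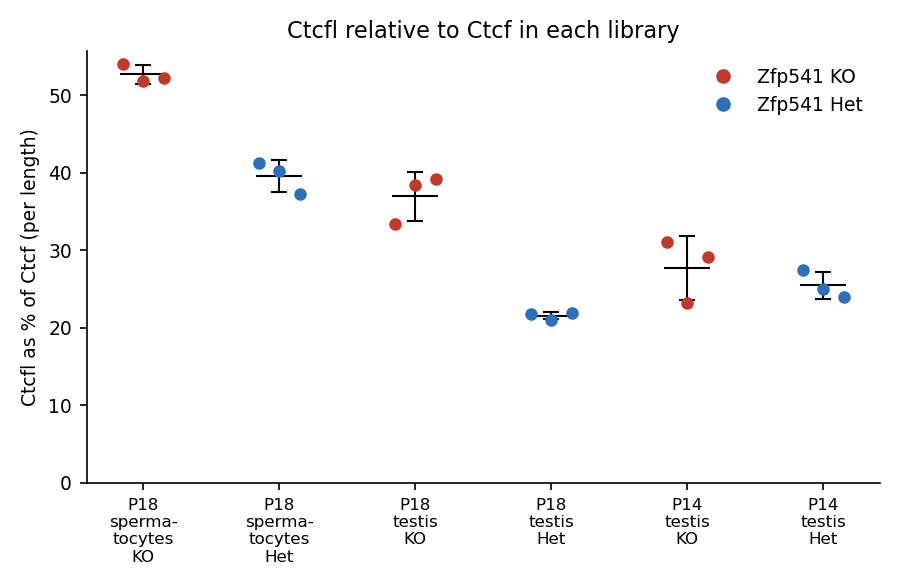
Ctcfl as a percentage of Ctcf per unit of length in each library, red for KO and blue for Het, with group mean ± SD (n = 3). KO libraries lie above Het libraries in P18 spermatocytes and P18 testis, and KO library 2 of P14 testis, at 23.2%, lies below all P14 Het libraries.

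Ctcflos, the antisense gene that shares exon bases with Ctcfl, was low in all groups and was named after its values were seen. It averaged 2.65 ± 0.302 scaled RPKM in KO and 1.48 ± 0.227 in Het spermatocytes (log2 difference 0.67 ± 0.17, limma adjusted p = 0.0199), and leaving out KO library 2 or 3 ended that call (adjusted p up to 0.0826). In P18 testis it averaged 1.71 ± 0.37 scaled FPKM in KO and 1.11 ± 0.157 in Het (adjusted p = 0.111), and at P14 1.48 ± 0.0458 in KO and 1.23 ± 0.155 in Het (adjusted p = 0.641). Of the 3214 stretches of 50 bases in Ctcfl exons, 124 also occurred in Ctcflos. Nothing is read from the spermatocyte call of Ctcflos, because it shares bases with Ctcfl, which was picked for its rise. A rise in KO spermatocytes was called for 18.7% of all genes. The part of shared reads in the Ctcfl values was not tested.

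Markers of spermatogonia, among which Ctcfl is known to be made, differed by genotype in the same libraries. Of 11 spermatogonia markers tested in spermatocytes, 7 were higher and 1 lower in KO (median log2 difference 0.71), where a rise was called for 18.7% of all genes and a fall for 18.1%. The 7 became 4 without KO library 1 or 2. Sohlh2, a transcription factor of differentiating spermatogonia, averaged 63.6 in KO and 26.2 in Het spermatocytes (adjusted p = 0.000543), and Dmrt1, which holds spermatogonia out of meiosis, 124 in KO and 68 in Het (adjusted p = 0.00164). Id4, a marker of spermatogonial stem cells, was lower in KO by a log2 difference of -1.67 (adjusted p = 0.00371). The summed level of the 12 listed spermatogonia markers ranged over 324.2 to 341.9 in KO and 185.2 to 208.5 in Het spermatocytes, over 141.6 to 156.5 in KO and 113.6 to 133.4 in Het P18 testis, and over 178 to 182.6 in KO and 153.5 to 175.5 in Het P14 testis. Genes of high level weigh most in these sums. In P18 testis Dmrt1 averaged 53.7 in KO and 43.3 in Het, and Sohlh2 29 in KO and 19.1 in Het. Id4 went the other way there, at 9.79 in KO and 16.9 in Het. Of 10 spermatogonia markers tested in P18 testis, 4 were higher and 1 lower, beside 5.63% and 17.7% of all genes. The 4 became 0 without Het library 2, KO library 2 or KO library 3, 1 without KO library 1 and 2 without Het library 1. At P14, where calls covered 0.0111% of genes as higher and 0.188% as lower, none of 11 passed. No listed spermatogonia marker was at 0 in all libraries of a group, and Nanos2 was under the filter in every set. Their part in the Ctcfl and Ctcf differences was not tested.

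Markers of late pachytene spermatocytes moved the other way: 9 of 10 were lower in KO spermatocytes, 10 of 10 in KO P18 testis and 2 of 7 in KO testis at P14. A fall was called for 18.1%, 17.7% and 0.188% of all genes in these sets. Of the 10 listed, 10 had a mean of at least 1 in Het and 6 in KO spermatocytes, 10 and 7 in P18 testis, and 7 and 6 at P14. Tested genes with a KO mean under 1, among them Acr at P14 (0.145 in KO, 1.435 in Het), passed the filter only through Het libraries. Their fall was fixed in advance, so nothing is read from it. The P14 calls, Piwil1 and Acr, rested on single libraries: the 2 became 0 without KO library 1 or 2 or Het library 1 or 3, 1 without Het library 2 and 5 without KO library 3. Leaving out a Het library at P18 took some of these genes under the filter, and 5 of 6 to 7 of 7 of those still tested were lower. Their summed level was 330.0 to 400.7 in KO and 1589 to 3652 in Het spermatocytes, 282.5 to 286.3 in KO and 835.2 to 1700 in Het P18 testis, and 92.2 to 137.2 in KO and 183.9 to 234.5 in Het P14 testis. Over all genes, a rise in KO was called for 18.7% in spermatocytes, 5.63% in P18 testis and 0.0111% at P14. Of the 9 meiotic entry markers, 2 were higher and 1 lower in KO spermatocytes, 3 were higher and 2 lower in KO P18 testis, and none passed at P14. The P18 testis counts became 1 and 0 without Het library 2, KO library 2 or KO library 3, and 2 and 1 without KO library 1 or Het library 1, and the lower call in spermatocytes ended without Het library 3. The sums of Sertoli markers were 1113 to 1172 in KO and 883 to 1068 in Het P18 testis and 23.9 to 54.6 in KO and 38.3 to 62.4 in Het spermatocytes, where none of 9 passed the test. Round spermatid markers summed to 6.43 to 7.37 in KO and 7.88 to 8.21 in Het spermatocytes, and macrophage markers to 9.92 to 11.6 in KO and 5.75 to 8.25 in Het. Erythroid markers summed to at most 0.554 in KO and 0.445 in Het spermatocytes, with Hba-a1 and Hbb-bt listed at 0 in both. The part of these cells in the Ctcfl and Ctcf differences was not tested.

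The spermatocyte fraction held more of both transcripts than whole testis of the same age. For Ctcfl the fractions are given as a description with no test, because it was picked on KO and Het levels of these same libraries. In KO mice Ctcfl averaged 12.7 ± 0.465 scaled RPKM in spermatocytes and 6.04 ± 0.468 scaled FPKM in testis (SD, n = 3 each), a log2 difference of 1.01 ± 0.09. In Het mice the averages were 7.01 ± 0.661 in spermatocytes and 3.283 ± 0.117 in testis, 0.99 ± 0.09 apart. In both genotypes the fractions did not overlap, with spermatocytes higher. A rise was called for 28.7% of all 18860 genes in KO and 24.5% in Het, and libraries did not overlap in that direction for 34.3% in KO and 23.8% in Het.

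Ctcf was higher in spermatocytes than in testis by 0.54 ± 0.08 in KO (24.1 ± 1.12 against 16.3 ± 0.127, limma adjusted p = 8.92e-05) and by 0.21 ± 0.08 in Het (17.7 ± 1.53 against 15.2 ± 0.515, adjusted p = 0.035). The Het call was weak. It ended without Het spermatocyte library 1 (0.17, adjusted p = 0.115) or 3 (0.18, 0.0804), without Het testis library 2 (0.22, 0.0748) or 3 (0.18, 0.11), and without KO testis library 2 or 3 (0.21, adjusted p = 0.053 and 0.0519), which enter the shared estimate of spread. With values as deposited it was 0.08 (adjusted p = 0.336). Spermatocytes and testis were deposited in different units as separate tables, so the fraction and its preparation cannot be told apart.

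Ctcf was lower in P18 testis than in P14 testis in both genotypes. Beside it, 4 of 7 late pachytene markers tested were higher at P18 in KO testis and 7 of 7 in Het testis, and their part in the result was not tested. Ccna1 and Spata16 among the 7 passed the filter only with the P18 Het libraries, so their rise in Het was fixed in advance and nothing is read from it. Among all 15824 genes tested, 2879 were called higher at P18 in KO testis and 4764 in Het testis. Ctcf averaged 16.3 ± 0.127 at P18 and 19.4 ± 0.803 at P14 in KO testis, where it fell by 0.24 ± 0.05 on the log2 scale (limma, adjusted p = 0.00396). With the values as deposited it was 0.07 higher at P18 (adjusted p = 0.297), against a median of 0.29 for all genes under that setting. In Het testis the averages of 15.2 ± 0.515 at P18 and 17.8 ± 0.999 at P14 gave a log2 difference of -0.22 ± 0.05 (adjusted p = 0.00417), which was -0.04 as deposited (adjusted p = 0.589) against a median of 0.19. In both genotypes the P18 libraries all lay below the P14 libraries, as for 31.6% of the 15824 genes tested in KO testis and 34.2% in Het testis, and a fall was called for 25.7% of genes in KO and 31.6% in Het.

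For Ctcfl the ages are given as a description with no test, because the P18 testis levels in KO and Het are among those it was picked on. In Het testis it was at 3.42, 3.23 and 3.21 at P18 against 4.67, 4.35 and 4.54 at P14. Those ages did not overlap, and the log2 difference was -0.41 ± 0.09. In KO testis the ages overlapped, with 5.51, 6.24 and 6.38 at P18 against 5.73, 4.62 and 5.75 at P14, a log2 difference of 0.16 ± 0.09. The KO difference was 0.07 without P14 KO library 2 and 0.45 with the values as deposited. Whether the age difference of Ctcfl differed between genotypes was not tested. Whole-table scaling bears on calls with age: in KO testis 2879 genes were higher and 4065 lower at P18, against 7568 higher and 2224 lower with values as deposited, and in Het testis 4764 higher and 5002 lower, against 6340 and 3376. Age and the separate making of the P14 and P18 tables cannot be told apart.

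Genes that work with CTCF and CTCFL were taken from lists, with KO again set against Het. Cohesin, the ring complex that CTCF halts on chromatin, had 5 of 9 core subunits higher and none lower in KO spermatocytes (median log2 difference 0.55). Over all genes in that set, a rise was called for 18.7% and a fall for 18.1%, with a median difference of 0.10. The remaining core subunits are described beside the 2 that lead by size, a choice made after their values were seen. Rad21, the mitotic and general kleisin that closes the ring, averaged 69.1 in KO and 41.2 in Het spermatocytes (0.74 ± 0.10, limma adjusted p = 0.00243). Smc1a, its general SMC arm, averaged 11.4 in KO and 7.2 in Het (0.63 ± 0.11, adjusted p = 0.00652), and Rec8, the meiotic kleisin, 10.8 in KO and 7.28 in Het (0.55 ± 0.11, adjusted p = 0.00965). Of the other meiosis-specific subunits, Rad21l averaged 27.9 in KO and 19.4 in Het (0.53 ± 0.17, adjusted p = 0.0511), Smc1b 167 in KO and 156 in Het (0.10 ± 0.16, adjusted p = 0.666) and Stag3 116 in KO and 137 in Het (-0.22 ± 0.18, adjusted p = 0.362). Stag1, a general subunit, averaged 29.9 in KO and 24.3 in Het (0.30 ± 0.13, adjusted p = 0.11). Smc3 and Stag2 were also called, but Smc3 not without KO library 1 or 3 (adjusted p up to 0.0725) and Stag2 not without KO library 1, 2 or 3 (up to 0.0763).

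In P18 testis, 2 of 9 core subunits were higher, Rad21 (46.4 in KO and 38 in Het, 0.29 ± 0.06, limma adjusted p = 0.0259) and Smc3 (32.4 in KO and 26.6 in Het, 0.28 ± 0.06, adjusted p = 0.0221), and 1 was lower, Stag3 (42.4 in KO and 58.4 in Het, -0.45 ± 0.10, adjusted p = 0.0249), with a list median of 0.21. The split of all calls in that set depended on the scaling. In the main fit 1028 genes (5.63%) were higher and 3227 (17.7%) lower. The counts were 2473 and 2860 with values as deposited and 2901 and 2771 with median-of-ratios scaling. Single libraries decided most list calls in this tissue. Of the 13 calls in the 5 lists, 12 ended without KO library 2 and 12 without Het library 2, 9 without KO library 1, 11 without KO library 3, and 1 each without Het library 1 or 3 (adjusted p up to 0.117), and Ybx1 alone was called in all of these.

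Factors that load, release and protect cohesin had 4 of 10 tested members higher and none lower in KO spermatocytes (median 0.21). Beside them, 18.7% of all genes were called higher and 18.1% lower in spermatocytes, and 5.63% and 17.7% in P18 testis. Esco2, the acetyltransferase that establishes cohesion in S phase, averaged 29.7 in KO and 19.3 in Het (0.62 ± 0.13, limma adjusted p = 0.0101), and Sgo1, the shugoshin that protects centromeric cohesin, 8.37 in KO and 5.52 in Het (0.56 ± 0.11, adjusted p = 0.01). In P18 testis 1 of 11 was higher, Esco2 (0.32 ± 0.06, adjusted p = 0.0143), and 2 were lower, Nipbl, the cohesin loader (-0.56 ± 0.14, adjusted p = 0.0326), and Sgo2a, the meiotic shugoshin (-0.47 ± 0.11, adjusted p = 0.0329), with a median of 0.05.

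Of 16 reported partners and co-regulators of CTCF, 7 were higher and 1 lower in KO spermatocytes (median 0.32). The shares of all genes called higher and lower were 18.7% and 18.1% there, and 5.63% and 17.7% in P18 testis. Patz1, a zinc-finger factor found at loop anchors, averaged 16.8 in KO and 8.19 in Het (1.00 ± 0.12, limma adjusted p = 0.00175), and Ubtf, the upstream factor of ribosomal gene transcription, 35.9 in KO and 20.2 in Het (0.81 ± 0.13, adjusted p = 0.00391). Ybx1, a Y-box protein of RNA packaging, was the lower member, at 171 in KO and 381 in Het (-1.09 ± 0.25, adjusted p = 0.0146), a call that ended without KO library 1 or 2 (up to 0.0529). In P18 testis Patz1 was higher (0.32 ± 0.08, adjusted p = 0.0371) and Ybx1 lower, at 127 in KO and 250.1 in Het (-0.96 ± 0.14, adjusted p = 0.00883), and the median was 0.03.

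Of the 6 reported targets and partners of CTCFL, 2 were higher and 1 lower in each P18 set, with a median of 0.42 in spermatocytes and 0.19 in P18 testis. Among all genes, 18.7% were called higher and 18.1% lower in spermatocytes, and 5.63% and 17.7% in P18 testis. With 6 genes in the list, nothing is read from these counts. Stra8, the retinoic acid target that starts meiosis and whose promoter CTCFL is reported to bind, averaged 109.8 ± 4.38 in KO and 67.5 ± 10.8 in Het spermatocytes (0.71 ± 0.14, limma adjusted p = 0.00818) and 48.5 ± 2.94 in KO and 36.6 ± 1.91 in Het P18 testis (0.40 ± 0.07, adjusted p = 0.0122). Prss50, a testis protease gene, averaged 201 in KO and 144 in Het spermatocytes (0.48 ± 0.16, adjusted p = 0.0557) and was called in P18 testis (0.38 ± 0.09, adjusted p = 0.0336). Setd1a, a histone H3 lysine methyltransferase gene, was called in spermatocytes (0.43 ± 0.10, adjusted p = 0.0167), a call that ended without KO library 1, 2 or 3 (up to 0.0831), and not in P18 testis (0.11 ± 0.07, adjusted p = 0.295). Bag6, a chaperone gene, was lower in both, by log2 differences of -0.63 ± 0.20 (adjusted p = 0.047) in spermatocytes and -0.56 ± 0.11 (adjusted p = 0.0193) in P18 testis, and the spermatocyte call ended without KO library 1, 2 or 3 or Het library 1 (up to 0.132). Gal3st1, a sulfotransferase gene of germ-cell glycolipids that is low in mouse testes without Ctcfl, averaged 15.3 in KO and 11.4 in Het spermatocytes (adjusted p = 0.184) and 6.47 in KO and 5.26 in Het P18 testis (adjusted p = 0.0849). Prmt7, an arginine methyltransferase gene, had log2 differences of -0.17 ± 0.13 in spermatocytes (adjusted p = 0.332) and -0.35 ± 0.11 in P18 testis (adjusted p = 0.0586).

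Imprinted genes at loci with CTCF sites had 2 of 6 tested members higher and none lower in KO spermatocytes (median 0.49). These were H19, a non-coding RNA gene beside a control region that CTCF binds, at 16.7 in KO and 9.25 in Het (0.83 ± 0.14, limma adjusted p = 0.00494), and its neighbour Igf2, a growth factor gene, at 12.7 in KO and 7.94 in Het (0.64 ± 0.10, adjusted p = 0.00433). In P18 testis the same 2 genes, H19 (0.14 ± 0.10, limma adjusted p = 0.313) and Igf2 (0.27 ± 0.09, adjusted p = 0.074), did not pass. Grb10 (0.37 ± 0.08, adjusted p = 0.0214) and Peg3 (0.32 ± 0.08, adjusted p = 0.0315) were 2 of 7 called higher there (median 0.27). Calls over all genes covered 18.7% as higher and 18.1% as lower in spermatocytes, and 5.63% and 17.7% in P18 testis. Of the 22 list calls in spermatocytes, 11 held in the absence of any single library, among them Rad21, Smc1a, Rec8, Esco2, Sgo1, Patz1, Ubtf, Stra8, H19 and Igf2. The other 11 all ended without KO library 1, 9 without KO library 2, 10 without KO library 3, 6 without Het library 1, 3 without Het library 2 and 1 without Het library 3 (adjusted p up to 0.144).

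At P14 none of the 49 list genes tested passed limma, where 0.0111% of all genes were called higher and 0.188% lower. An unadjusted p under 0.05 was reached by 3 of the 49, and among all 18064 genes by 681 higher and 997 lower. None of 38 passed limma-voom on the reads read back, where 4 of 14626 genes were higher and 180 lower.

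**Figure D4:**
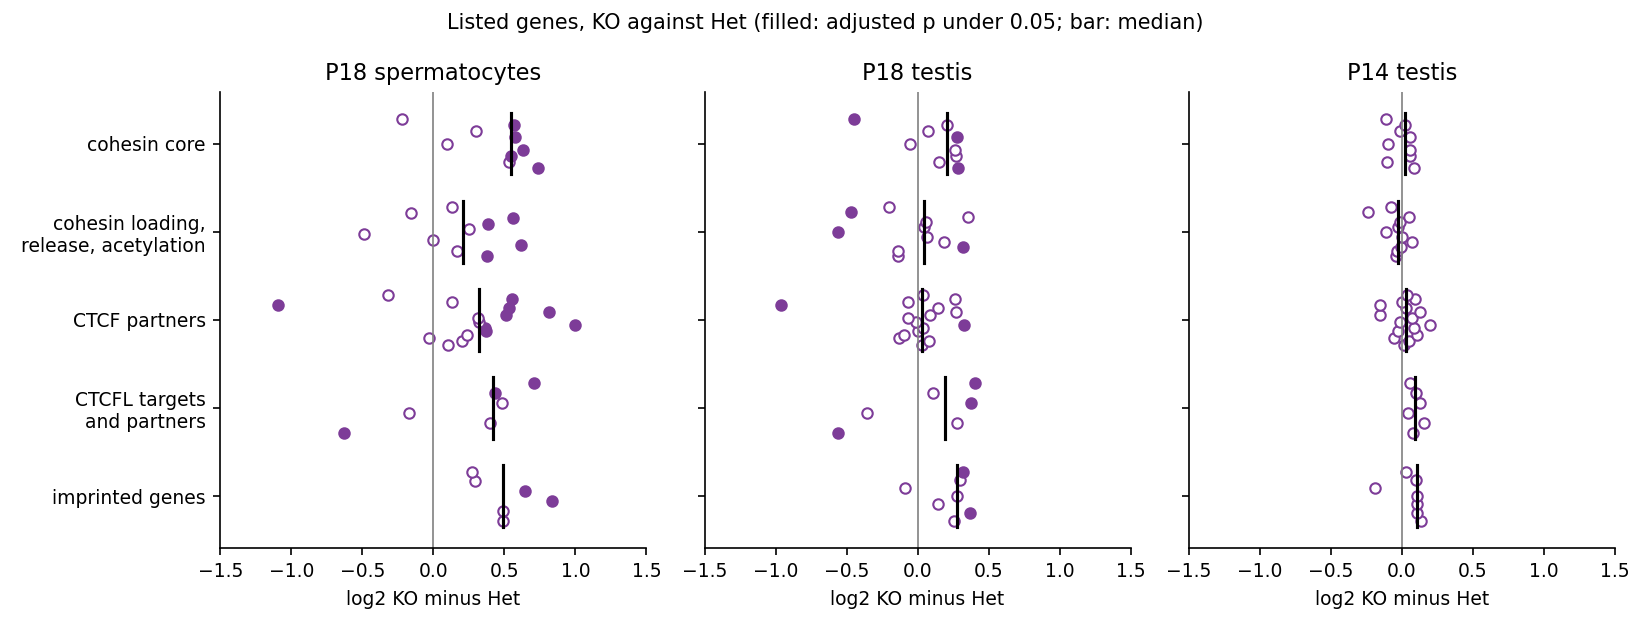
Log2 difference of KO minus Het for each listed gene in P18 spermatocytes, P18 testis and P14 testis, by list; each circle is a gene, filled where the adjusted p is under 0.05, and the black bar is the list median. The cohesin core median is 0.55 in spermatocytes, 0.21 in P18 testis and 0.03 in P14 testis.

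The genes with the most similar profile over the 18 libraries were ranked by the root mean square of the log2 distance, each gene centred on its own mean, over 10296 protein-coding genes. Nearest to Ctcfl was E2f1, a transcription factor of S-phase entry, at a distance of 0.147. Its level averaged 24.4 in KO and 13.7 in Het spermatocytes, 10.45 in KO and 7.08 in Het P18 testis, and 10.2 in KO and 8.99 in Het P14 testis. Next came Lzts3 (0.159), Ube2cbp (0.163), Adam15 (0.164), a membrane metalloprotease gene, and Dgkz (0.165), a diacylglycerol kinase gene, and the median gene stood at 0.654. Nearest to Ctcf were Arcn1 (0.051), a subunit of the COPI vesicle coat, Dhx33 (0.056), an RNA helicase gene, Rnf4 (0.06), a SUMO-targeted ubiquitin ligase gene, Nbr1 (0.064), an autophagy receptor gene, and Etf1 (0.067), a translation release factor gene, with the median gene at 0.422. Ctcf and Ctcfl were 0.404 apart, which made Ctcf number 1778 from Ctcfl and Ctcfl number 4904 from Ctcf. The points share their libraries, depth and scaling, so these distances are a description.

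**Figure D5:**
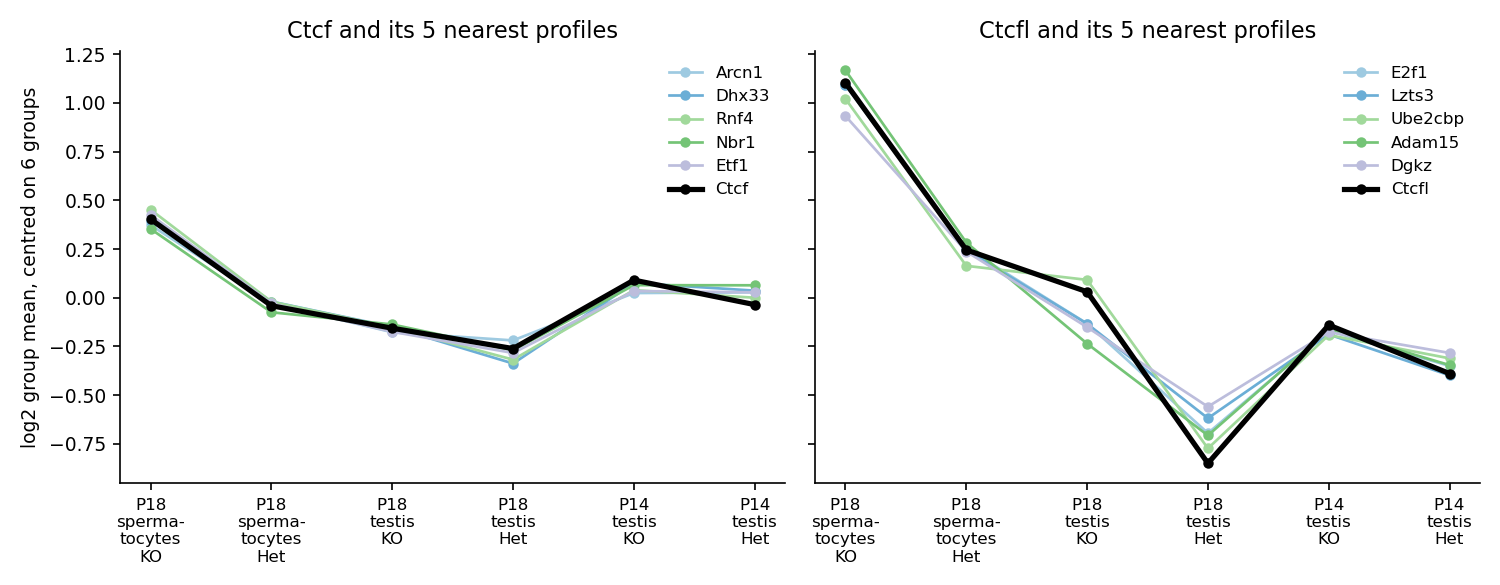
Log2 group means, centred on the mean of the 6 groups, of Ctcf (left, black) and Ctcfl (right, black) with the 5 genes nearest to each. The Ctcfl profile peaks in KO spermatocytes and is lowest in Het P18 testis, and the Ctcf profile has the same highest and lowest groups over a narrower range.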

How the data were processed

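The authors deposited RPKM for spermatocytes and P14 testis and FPKM for P18 testis, per the file headers, as 1 table of symbols and values per library. Per the submitters' processing notes, GRCm38, featureCounts, STAR 2.6.1a, CASAVA 1.9 and edgeR 3.28.1 were used, with no role or order given. The authors' annotation and strandedness are not given in the sources used here.

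The members and lists were chosen with earlier results of these data known. Reads were read back as whole multiples of each library's step at GENCODE M21 exon lengths (93.7 to 99.2% of low values whole, tolerance 0.02 reads), giving 17.96 to 21.12 megareads at P14, 12.81 to 16.95 in P18 testis and 9.26 to 18.31 in spermatocytes. TMM factors (trims of 30% and 5%) were 0.834 to 1.15. Symbols shared by several genes (190 or 217 a set) were left out, and comparisons across sets used genes whose reads were whole at the same length.

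Genes that reached a value of 1 in 3 or more libraries were fitted with limma 3.58.1 (R 4.3.3, trend, robust) on log2(value + 0.5), 6 libraries for KO against Het and 12 for age or fraction, two-sided, with Benjamini-Hochberg adjustment over all genes and a threshold of 0.05. Ctcf was tested with age and fraction, and the age and fraction values of Ctcfl are a description. Named from each list were up to 2 genes higher and 2 lower with the largest called differences (all 6 for CTCFL targets, and, added after their values were seen, the other cohesin core subunits in spermatocytes and H19 and Igf2 in P18 testis), and the 5 nearest profiles. Alternatives were pseudocounts of 0.1 and 1, other filters, other scalings, 1 fit over 18 libraries, limma-voom, a replicate block and leaving out each library. The fits were tested on simulated data. Tables were made with Python 3.11.15, numpy 2.4.6 and pandas 2.3.3, figures with matplotlib 3.10.9.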

Additional observations from a re-analysis of the deposited data

How the results depend on the processing

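Of 275 alternatives for Ctcf, Ctcfl and their ratio, 259 kept their direction and, where scored against the threshold, their side of it. The other values among them moved by less than 1 SD. For this count the age and fraction values of Ctcfl were also scored against the threshold, although they are a description in the text. With values as deposited, KO minus Het in P18 testis was 0.22 for Ctcf and 0.90 for Ctcfl, Ctcf at P18 minus P14 turned to 0.0715 in KO and was -0.0379 in Het without passing, Ctcfl at P18 minus P14 in KO was 0.45, and Ctcf in spermatocytes minus testis in Het was 0.0771 and did not pass. With median-of-ratios scaling, KO minus Het in P18 testis was 0.21 for Ctcf and 0.88 for Ctcfl, and with limma-voom it was 0.88 for Ctcfl. Without the filter, the Het fraction difference of Ctcf was 0.21 and did not pass (adjusted p = 0.058), and without single libraries it ran over 0.17 to 0.28. A minimum of 5 gave no value for Ctcfl at P14. The cause of these changes was not tested. The counts of list calls moved by more than 1.5 times in 93 of 450 alternatives.

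Over the settings, genes higher and lower in KO numbered 333 to 2901 and 2131 to 3410 in P18 testis (1028 and 3227 in the text; 67 to 1345 and 898 to 3015 without single libraries), 1895 to 3986 and 2008 to 3351 in spermatocytes (2980 and 2881; 1178 to 2725 and 1480 to 2808), and 0 to 4 and 3 to 180 at P14 (2 and 34; 0 to 4 and 0 to 113). For the fall with age they numbered 2224 to 4402 in KO (4065) and 3376 to 6053 in Het (5002), and for the rise in spermatocytes 4342 to 5994 in KO (5415) and 3832 to 5953 in Het (4627).

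Deviations of libraries that share a replicate number correlated weakly, from -0.364 to 0.175 over 12876 genes in all comparisons. For KO against Het these correlations were all positive at P14 (0.054 to 0.103) and in spermatocytes (0.032 to 0.175). Each library there correlated best with its own number. In P18 testis they ran from -0.036 to 0.011, and none was highest for its own number. The main fits did not pair libraries by number. A replicate block gave KO minus Het for Ctcfl of 0.82 in spermatocytes, 0.79 in P18 testis and 0.22 at P14, and changed no call of Ctcf. It ended 9 of the 13 list calls in P18 testis (limma adjusted p up to 0.081) and 1 of 22 in spermatocytes (0.0668). With it, 410 genes were higher and 2306 lower in P18 testis, 2914 and 3116 in spermatocytes, and 0 and 3 at P14. Depth limits Ctcfl most, at 166 to 578 reads a library.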
